A study of Mus musculus with 28 samples.

Results

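The 8 genes described here are Trim63, Fbxo32, Fbxo30, Fbxo40 and Fbxo21, which encode subunits of ubiquitin ligases that are studied in muscle wasting, Foxo1 and Foxo3, which encode forkhead transcription factors, and Gadd45a, a stress-induced gene. They were chosen by name, with earlier results of these data known. All 8 were present among the 55359 gene identifiers that the count tables of both cohorts hold. RNA was sequenced from the tibialis anterior, a fast muscle of the lower leg, of 28 C57BL/6N mice aged 8 weeks in 7 groups of 4 mice. In the cohort of Dnm2 mice, WT mice and Dnm2 S619L/+ mice received either placebo or tamoxifen. The latter carry 1 mutated copy of the gene of dynamin 2, a GTPase that cuts membranes. In the cohort of Bin1 mice, WT mice received placebo, and Bin1 mck-/- mice, in which the gene of the membrane-bending protein amphiphysin 2 is deleted by a Cre recombinase under the muscle creatine kinase promoter, received placebo or tamoxifen. Both genotypes are models of centronuclear myopathy, an inherited weakness of muscle with misplaced nuclei, and tamoxifen, a modulator of estrogen receptors, was mixed into the diet. WT mice on tamoxifen were analysed in the Dnm2 cohort only, and the sex of the mice is not in the labels.

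Muscle mass reflects the balance of protein synthesis and breakdown, and a large share of breakdown runs through ubiquitin ligases, which mark proteins for the proteasome. FoxO factors are held in the cytoplasm by Akt when insulin or IGF1 signalling is active, and enter the nucleus during fasting, disuse or glucocorticoid exposure, where they raise transcription of ligase genes. Trim63 (MuRF1) is a RING ligase that binds sarcomere proteins, whereas the Fbxo proteins are F-box subunits that bring substrates to SCF complexes built on cullin 1.

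The cohorts were sequenced with different library protocols (300 ng of RNA and 2 min of fragmentation for the Dnm2 cohort, 350 ng and 8 min for the Bin1 cohort), so levels were compared only within a cohort. Counts on genes ranged from 15586333 to 109710886 per mouse in the Dnm2 cohort and from 24671835 to 35136327 in the Bin1 cohort. Levels are given as CPM, the counts per 1000000 counts of a library size scaled by the TMM method. Bin1 itself was at 521 to 556 CPM in WT mice of its cohort, 51.6 to 62.1 in Bin1 mck-/- mice on placebo and 36.0 to 49.5 in those on tamoxifen, whereas a point mutation cannot be checked in counts. The summed level of 10 myofiber markers was 83980 to 197300 CPM in all mice, so every library held muscle RNA. Summed levels of markers of other cell types differed between groups and mice. A list of 10 osteoblast and osteocyte markers summed to 30.2 to 57.6 CPM in WT mice of the Dnm2 cohort on placebo, to 299 to 933 CPM in WT mice on tamoxifen, to 12.1 to 19.3 CPM in Dnm2 S619L/+ mice on placebo and to 48.1 to 539 CPM in Dnm2 S619L/+ mice on tamoxifen. The same sum in the Bin1 cohort was 18.6 to 46.9 CPM in 11 mice and 297 CPM in Bin1 mck-/- mouse 2 on tamoxifen. In the WT mice on tamoxifen 0 of the 10 markers were at 0 throughout, against 2 of 10 in Dnm2 S619L/+ mice on placebo. Sums of 5 tendon and 5 cartilage markers were 708 to 1648 and 48.2 to 105 CPM in WT mice on tamoxifen, and 47.4 to 242 and 2.37 to 13.3 CPM in WT mice on placebo. Tendon markers summed to 256 to 485 CPM in Dnm2 S619L/+ mice on placebo, wholly above WT mice on placebo, and to 116 to 809 CPM in those on tamoxifen. Sums of 8 immune markers in the Dnm2 cohort were 60.7 to 157 CPM in WT mice on tamoxifen and 18.2 to 30.7 CPM in WT mice on placebo. They were 24.7 to 112 CPM in Dnm2 S619L/+ mice on placebo. In the Bin1 cohort they were 46.8 to 95.1 CPM in Bin1 mck-/- and 13.1 to 20.4 CPM in WT mice on placebo. Between the same 2 groups, 5 adipocyte markers summed to 27.3 to 91.3 CPM in Bin1 mck-/- and 2.88 to 5.48 CPM in WT mice. Sums of 5 markers of slow fibers were 107 to 205 CPM and 252 to 363 CPM in them. In bulk RNA, fewer myofibers and less RNA per myofiber cannot be told apart. The part of bone, tendon, immune or fat cells, or of slow fibers, in the values below was not tested.

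**Figure D1:**
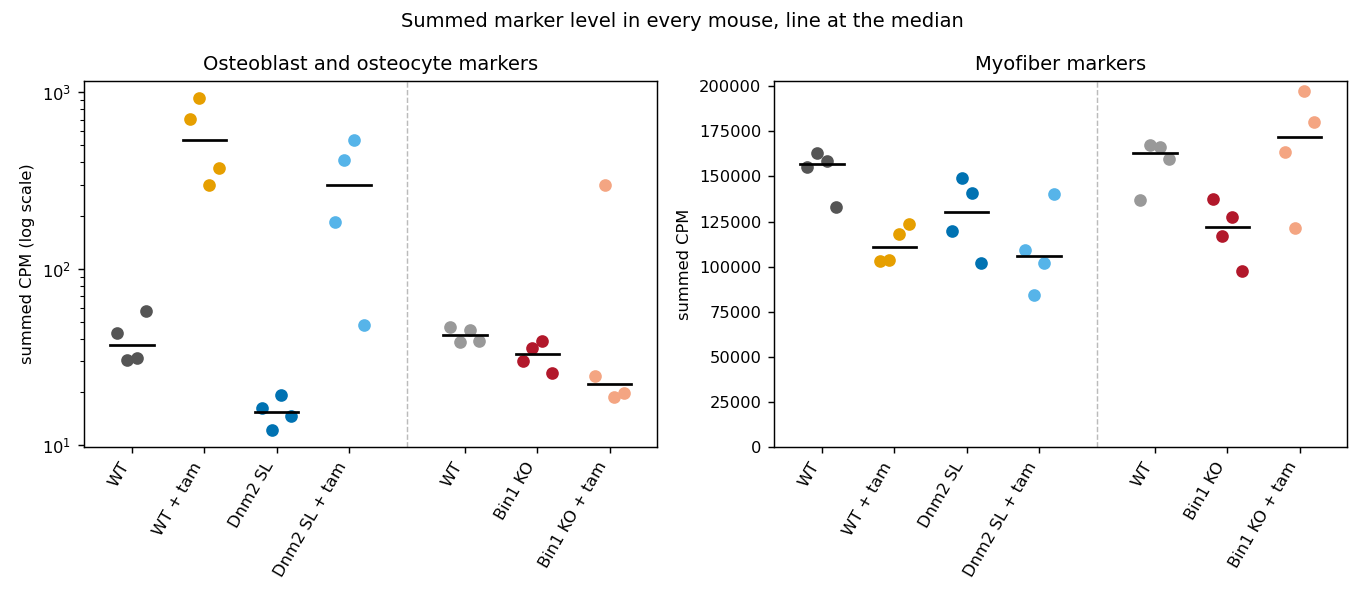
Summed CPM of 10 osteoblast and osteocyte markers (left, log scale) and of 10 myofiber markers (right) in every mouse of the 7 groups, with a line at the group median and a dashed line between the cohorts. The bone list lies at 299 to 933 CPM in WT mice on tamoxifen and at 12.1 to 19.3 CPM in Dnm2 S619L/+ mice on placebo, and 1 of the 4 Bin1 mck-/- mice on tamoxifen reaches 297 CPM.

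The number of members called is given for each comparison beside the share of all genes called. Gadd45a was 3.63 times higher in Dnm2 S619L/+ than in WT mice and was the 1 member of 8 that passed the test there (edgeR's quasi-likelihood test over all genes of the cohort, Benjamini-Hochberg adjusted p under 0.05, the rule for every call below), where 21.9% of the 15439 genes tested were called. Under tamoxifen, 0 of the 8 members were called in WT mice, against 27.7% of all genes. In Dnm2 S619L/+ mice it was 0 of 8, against 8.26%. Between Dnm2 S619L/+ mice on tamoxifen and WT mice on placebo, 3 members were called (Fbxo32, Fbxo40 and Gadd45a), against 28.9% of all genes. In the Bin1 cohort, with 14841 genes tested, 0 members were called between Bin1 mck-/- and WT mice on placebo, against 2.61% of all genes. There, 1 member was called under tamoxifen in Bin1 mck-/- mice (Fbxo32), against 3.13%. Between Bin1 mck-/- mice on tamoxifen and WT mice, 1 member was called (Trim63), against 0.849%. Comparisons within a cohort share their WT mice and are not independent of each other. At an unadjusted p under 0.05 there were 2, 1, 1 and 5 members in these comparisons of the Dnm2 cohort, against 36.5%, 40.3%, 25.4% and 40.8% of all genes, and 2, 2 and 4 in those of the Bin1 cohort, against 20.2%, 20.7% and 14.9%. In the same order, DESeq2 called 2, 0, 0 and 3 members in the Dnm2 cohort (26.4%, 31.8%, 12.2% and 32.5% of all genes) and 1, 2 and 2 in the Bin1 cohort (8.03%, 8.24% and 3.67%). Shares of all genes moved with single mice, with 18 genes called between Bin1 mck-/- and WT mice without WT mouse 8 and 759 without treated mouse 2, against 388 with all mice.

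**Figure D2:**
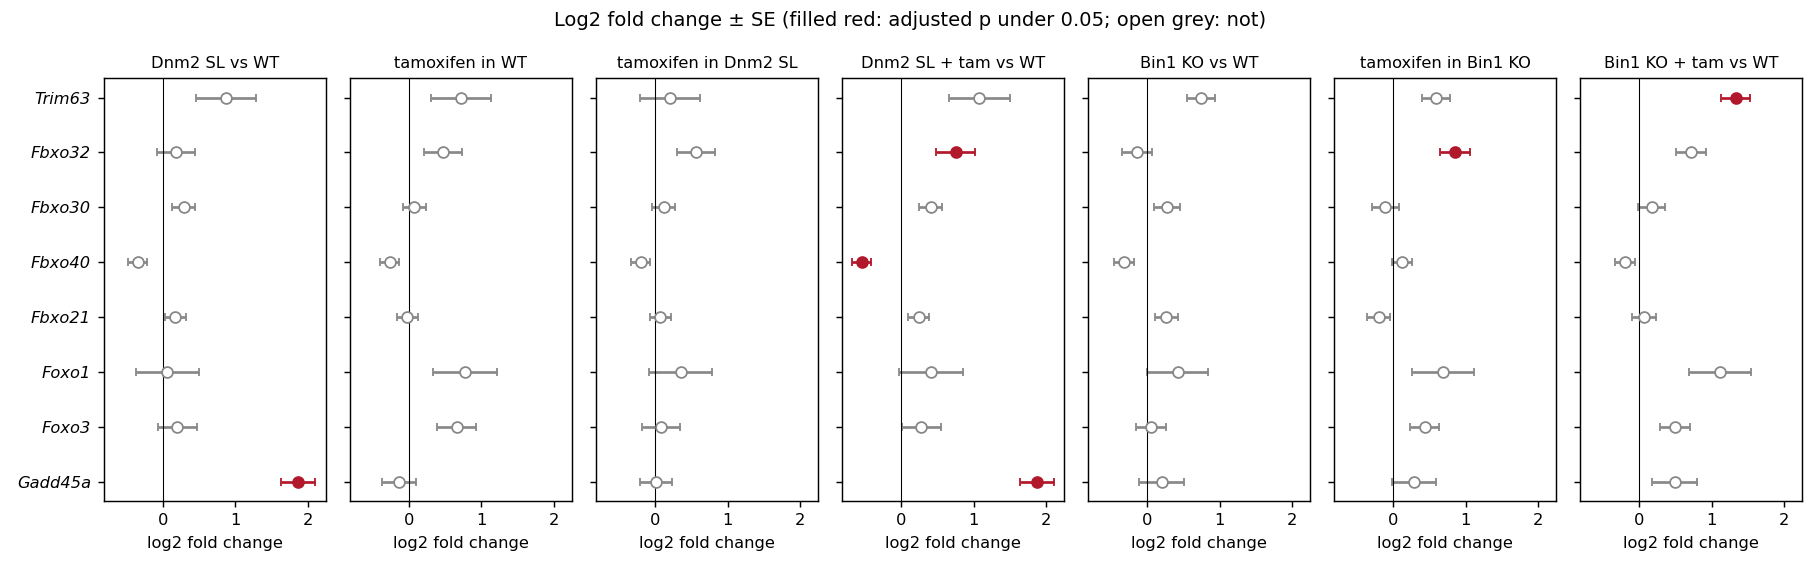
Log2 fold change of each member (x axis, with SE bars) in the 7 comparisons of groups of 4 mice. Filled red points passed the test at an adjusted p under 0.05, and open grey points did not. Gadd45a lies at 1.86 and 1.88 in both comparisons of Dnm2 S619L/+ with WT mice, and Fbxo40 lies below 0 in all comparisons but tamoxifen in Bin1 mck-/- mice, where it is at 0.12 (with scaling by myofiber genes it lies above 0 under tamoxifen in WT and Dnm2 S619L/+ mice and in Bin1 mck-/- against WT mice, at 0.17, 0.0084 and 0.0753).

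Some members separated the groups without a call, and their values are given with each gene. Between Dnm2 S619L/+ and WT mice on placebo, all values of 2 members (Fbxo40 and Gadd45a) lay on one side of the other group, as did those of 24.9% of all genes. For tamoxifen in WT mice this held for 2 members (Fbxo40 and Foxo3; 31.4% of all genes), and for tamoxifen in Dnm2 S619L/+ mice for 0 (10.4%). Against WT mice on placebo, Dnm2 S619L/+ mice on tamoxifen were set apart in 3 members (Fbxo32, Fbxo40 and Gadd45a; 26.1%). In the Bin1 cohort the groups did not overlap for 2 members between Bin1 mck-/- and WT mice (Trim63 and Fbxo40; 16.5%), for 1 under tamoxifen in Bin1 mck-/- mice (Fbxo32; 9.80%) and for 3 between Bin1 mck-/- mice on tamoxifen and WT mice (Trim63, Foxo1 and Foxo3; 7.96%).

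**Figure D3:**
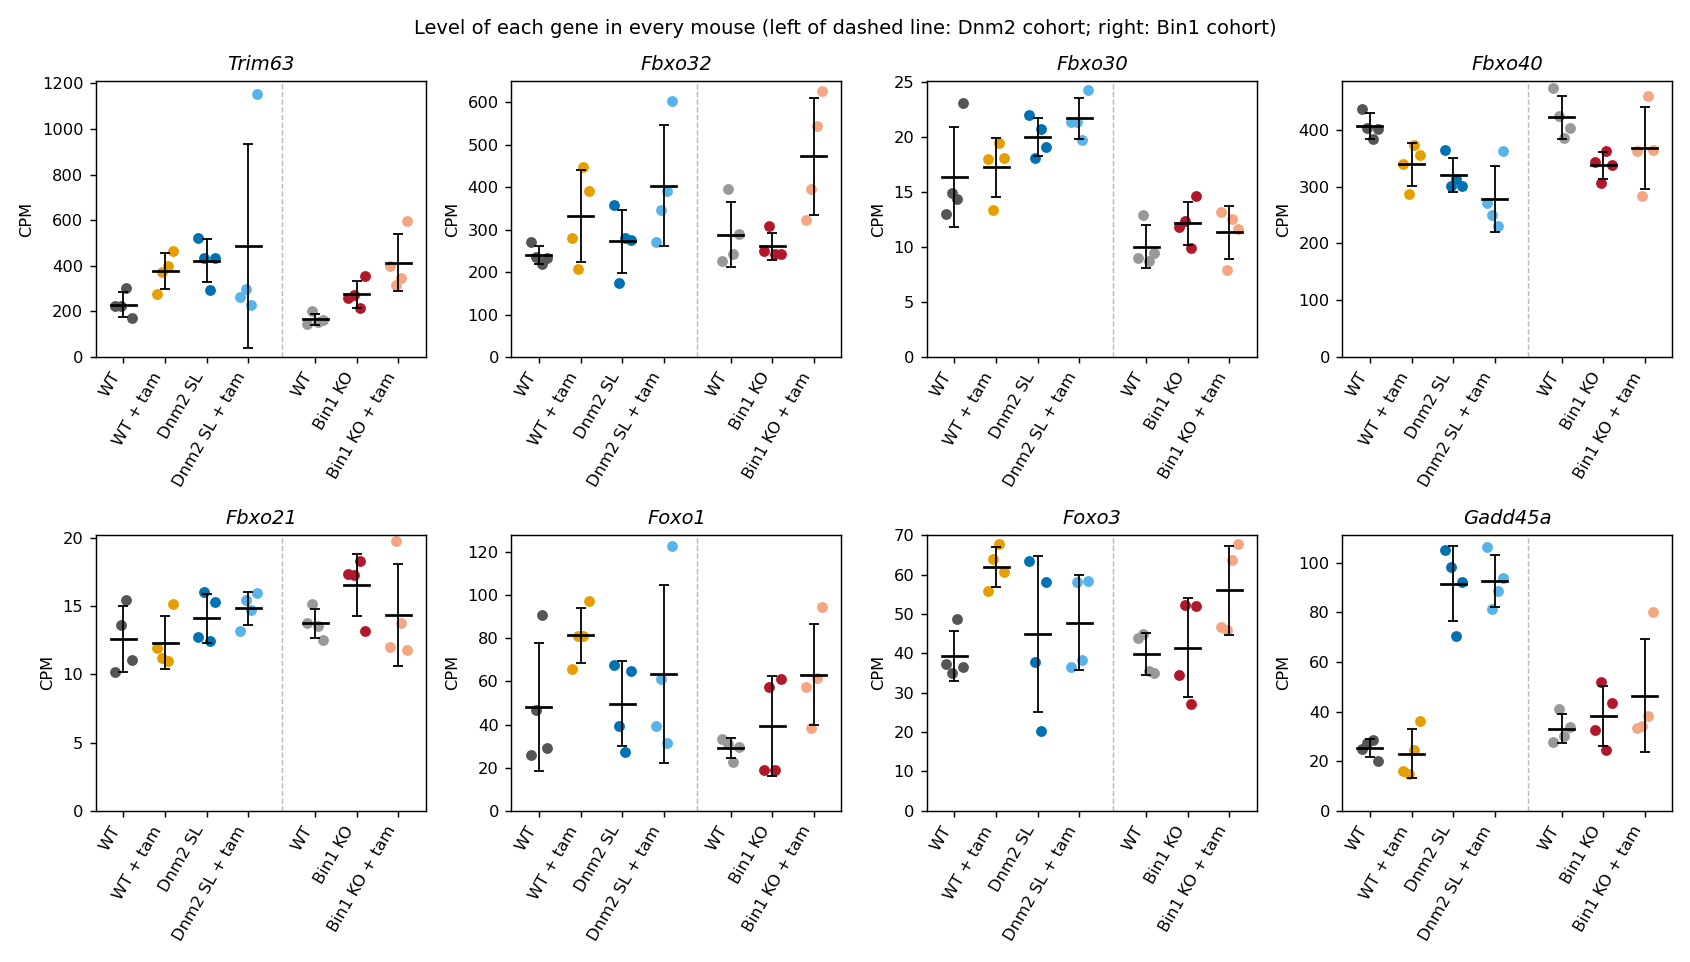
CPM of the 8 members in every mouse (points), with the mean (line) and SD (bar) of each group of 4 mice, the Dnm2 cohort left and the Bin1 cohort right of the dashed line. Gadd45a lies at 70.4 to 106 CPM in the 8 Dnm2 S619L/+ mice and at 14.8 to 36.4 CPM in the 8 WT mice of that cohort, and 1 Dnm2 S619L/+ mouse on tamoxifen stands at 1155 CPM of Trim63.

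Levels per exon length put the members in a similar order in the WT mice of both cohorts. In the Dnm2 cohort Trim63 had 81.0 ± 18.7 RPKM (CPM per 1000 bases of exon, SD, n = 4) and Fbxo40 73.7 ± 4.01, which did not differ beyond their spread. Fbxo32 followed with 34.4 ± 3.09 RPKM and Gadd45a with 14.3 ± 2.13 RPKM. Foxo1 (5.55 ± 3.44 RPKM) and Foxo3 (5.21 ± 0.833 RPKM) lay close together, and Fbxo30 (3.14 ± 0.873 RPKM) and Fbxo21 (2.27 ± 0.437 RPKM) were lowest, within each other's spread. In WT mice of the Bin1 cohort Fbxo40 (76.4 ± 6.81 RPKM) stood above Trim63 (58.2 ± 8.55 RPKM), and the order of the rest differed only between Foxo1 and Foxo3 and between Fbxo30 and Fbxo21.

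Trim63 (ENSMUSG00000028834), the RING ligase of thick filament proteins, was at its lowest level in WT mice on placebo in both cohorts and differed from them by a called amount only in Bin1 mck-/- mice on tamoxifen. The stretch before its start is shown since it is the only one among the 8 promoter windows of 7 members that held all of the letters searched for (both strands: GTAAACA, the core of FoxO sites; AGAACA, a unit of glucocorticoid receptor sites; CAGCTG, an E-box of myogenic factors). Windows of 300 bases, 250 before and 50 after the start, came from RefSeq (GRCm38.p6), where 3.65% of 32851 promoters hold the first, 19.0% the second and 16.3% the third. Fbxo32 had no window among them, so its promoter was not searched. In the stretch below, at chr4:134314910-134315059 on the plus strand, capitals mark these letters, with the glucocorticoid unit (as its reverse complement, at -200) directly beside the FoxO core (as its reverse complement, at -194) and the E-box at -72 from the start.
Trim63: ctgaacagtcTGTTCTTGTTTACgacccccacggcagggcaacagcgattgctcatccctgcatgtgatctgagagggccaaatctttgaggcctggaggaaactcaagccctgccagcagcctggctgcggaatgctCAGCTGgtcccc

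In the Dnm2 cohort, Trim63 had 222, 224, 302 and 173 CPM in the 4 WT mice on placebo, and 524, 432, 295 and 436 CPM in the Dnm2 S619L/+ mice. Only Dnm2 S619L/+ mouse 3 fell within the WT range, and the log2 fold change of 0.87 missed the threshold (SE 0.42, edgeR adjusted p = 0.14). WT mice on tamoxifen had 275, 373, 401 and 466 CPM, again with 1 mouse in the range of WT mice on placebo (log2 fold change 0.72 with an SE of 0.42, edgeR adjusted p = 0.21). The Dnm2 S619L/+ mice on tamoxifen had 265, 299, 228 and 1155 CPM. Mouse 4 thus stood far above the other 3, which lay within or at the edge of the WT range, and this mouse also had the lowest sum of bone markers among the treated mice of the cohort (48.1 CPM). Without it, Trim63 was lower under tamoxifen in Dnm2 S619L/+ mice (log2 fold change −0.68, edgeR adjusted p = 0.044, against 0.21 and 0.80 with it), and the log2 fold changes in Dnm2 S619L/+ mice and in WT mice on tamoxifen were the same (0.87 and 0.72) and were called (edgeR adjusted p = 0.0058 and 0.013). Against WT mice on placebo, treated Dnm2 S619L/+ mice had a log2 fold change of 1.08 with mouse 4 (edgeR adjusted p = 0.065), 0.20 without it (0.50), 1.28 without treated mouse 1 (0.045) and 1.32 without treated mouse 3 (0.038).

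Across the Bin1 cohort, mean Trim63 was higher in each group than in the one before. WT mice on placebo had 145, 200.1, 154 and 163 CPM, Bin1 mck-/- mice on placebo 259, 273, 216 and 356 CPM, and Bin1 mck-/- mice on tamoxifen 399.8, 314, 349 and 596 CPM. All Bin1 mck-/- mice lay above all WT mice, whatever their diet, and the Bin1 mck-/- groups overlapped. The group means were 165 ± 24.3, 276 ± 58.6 and 415 ± 126 CPM (SD, n = 4). Bin1 mck-/- mice on tamoxifen differed from WT mice by a log2 fold change of 1.33 (with an SE of 0.20, edgeR adjusted p = 0.0052), a call kept without any single mouse. The difference between Bin1 mck-/- and WT mice on placebo (0.74, SE 0.20) just missed the threshold (edgeR adjusted p = 0.057) and passed it without Bin1 mck-/- mouse 3 on placebo (0.83, adjusted p = 0.030) or mouse 2, 3 or 4 on tamoxifen (0.73 to 0.74, adjusted p = 0.037, 0.049 and 0.022). Tamoxifen against placebo in these mice gave 0.59 (SE 0.20, edgeR adjusted p = 0.11), and 0.70 without treated mouse 2, the mouse with raised bone markers (adjusted p = 0.039).

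Fbxo32 (ENSMUSG00000022358), which encodes atrogin-1, an F-box protein that targets growth-promoting factors, was called higher in 2 comparisons, both with mice of a model on tamoxifen. In the Bin1 cohort, WT mice had 226, 395, 242 and 289 CPM, Bin1 mck-/- mice on placebo 250.2, 309, 244 and 242 CPM, and Bin1 mck-/- mice on tamoxifen 323, 395, 544 and 628 CPM. The treated mice all lay above the Bin1 mck-/- mice on placebo, and WT mouse 6 was level with treated mouse 2. The rise under tamoxifen was called (mean 473 ± 138 against 261 ± 31.8 CPM, log2 fold change 0.86 with an SE of 0.21, edgeR adjusted p = 0.041). The call was lost without any of the placebo Bin1 mck-/- mice, treated mouse 3 or 4, or WT mouse 7 or 8 (log2 fold change 0.69 to 0.94, adjusted p = 0.053 to 0.12). It was also lost when libraries were scaled by myofiber genes, with a log2 fold change of 0.37 (adjusted p = 0.16) while the median of all genes moved to −0.44. Against WT mice the treated mice differed by 0.71 (SE 0.21, edgeR adjusted p = 0.13), and Bin1 mck-/- and WT mice on placebo by −0.14 (SE 0.21, adjusted p = 0.76).

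In the Dnm2 cohort, Fbxo32 was at 270.1, 236, 219 and 234 CPM in WT mice on placebo and at 358, 176, 280.3 and 276 CPM in Dnm2 S619L/+ mice on placebo. WT mice on tamoxifen had 281, 206, 447 and 392 CPM, and Dnm2 S619L/+ mice on tamoxifen 271, 347, 392 and 604 CPM. The last group lay wholly above WT mice on placebo, narrowly at the closest pair (271 and 270.1 CPM), and the other groups overlapped with them. This difference was called (log2 fold change 0.75 with an SE of 0.27, edgeR adjusted p = 0.044), and the effect of tamoxifen within Dnm2 S619L/+ mice was not (0.57, SE 0.26, adjusted p = 0.19), nor was that within WT mice (0.47, SE 0.26, adjusted p = 0.20). The call was lost without any single WT mouse on placebo, treated Dnm2 S619L/+ mouse 2, 3 or 4, WT mouse 1 on tamoxifen, or Dnm2 S619L/+ mouse 3 or 4 on placebo (adjusted p = 0.051 to 0.14), and the log2 fold change was 0.49 without treated mouse 4. It was also lost without the filter on low counts (0.76, adjusted p = 0.12).

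Fbxo40 (ENSMUSG00000047746), a muscle-restricted F-box protein known to target the insulin receptor substrate IRS1, was the 1 member called lower in any comparison. Its promoter is shown for contrast with Trim63, since the window at the first start held 2 E-boxes and none of the other letters. The stretch at chr16:36990478-36990577 (GRCm38.p6, minus strand) has them in capitals at -81 and -53, and the window at the second start held 1 E-box at -89 and the letters AGAACA at -176.
Fbxo40: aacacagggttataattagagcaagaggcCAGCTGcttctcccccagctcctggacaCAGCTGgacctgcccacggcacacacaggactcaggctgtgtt

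WT mice of the Dnm2 cohort on placebo had 437, 404, 384 and 402 CPM of Fbxo40, and Dnm2 S619L/+ mice on placebo 364, 301, 314 and 301 CPM. WT mice on tamoxifen had 340.3, 287, 373 and 355 CPM, and Dnm2 S619L/+ mice on tamoxifen 272, 249.9, 231 and 362 CPM. With TMM scaling, each of these last 3 groups lay wholly below WT mice on placebo. The difference was called for Dnm2 S619L/+ mice on tamoxifen, whose level was 0.686 of that in WT mice (log2 fold change −0.54 with an SE of 0.13, edgeR adjusted p = 0.0063). It was −0.35 for Dnm2 S619L/+ mice on placebo (SE 0.13, adjusted p = 0.067) and −0.26 for WT mice on tamoxifen (SE 0.13, adjusted p = 0.14). The value for Dnm2 S619L/+ mice on placebo was called without treated Dnm2 S619L/+ mouse 4 (−0.35, adjusted p = 0.021), as did tamoxifen against placebo within Dnm2 S619L/+ mice (−0.35, adjusted p = 0.039, against −0.20 and 0.36 with this mouse). When libraries were scaled by the sum of 10 myofiber genes, which was itself lower in these mice, the log2 fold change of the called comparison was −0.06 (adjusted p = 0.74) and the median of all genes moved to 0.51. With unscaled library sizes, mean Fbxo40 was 348 CPM in WT mice on placebo and 352 CPM in WT mice on tamoxifen. It was then 331 CPM in Dnm2 S619L/+ mice on placebo and 301 CPM in those on tamoxifen. Fbxo40 in the Bin1 cohort had 473, 424, 386 and 404 CPM in WT mice, and 342, 306, 363 and 338 CPM in Bin1 mck-/- mice. These groups did not overlap, and the log2 fold change of −0.32 was not called (SE 0.14, adjusted p = 0.20). Bin1 mck-/- mice on tamoxifen spread from 283 to 459 CPM, across both other groups.

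Fbxo30 (ENSMUSG00000047648), the F-box protein MUSA1, and Fbxo21 (ENSMUSG00000032898), the F-box protein SMART, had low levels and 0 calls in any comparison. Fbxo30 ranged from 13.03 to 23.0 CPM in WT mice on placebo of the Dnm2 cohort and from 19.7 to 24.3 CPM in Dnm2 S619L/+ mice on tamoxifen, with a log2 fold change of 0.41 (with an SE of 0.16, edgeR adjusted p = 0.068). WT mouse 4, at 23.0 CPM against 13.03 to 14.9 CPM in the other WT mice, bears on this value. Without it the difference was called for Dnm2 S619L/+ mice on tamoxifen (0.62, adjusted p = 0.0036) and on placebo (0.50, adjusted p = 0.014, against 0.29 and 0.21 with it). Fbxo30 in the Bin1 cohort lay between 7.88 and 14.7 CPM in all 12 mice. Fbxo21 lay between 10.2 and 19.8 CPM in all 28 mice, and its log2 fold changes in the 7 comparisons of groups ran from −0.20 to 0.27. Neither the FoxO core nor the other letters were found in the promoter windows of Fbxo30 and Fbxo21, or in those of Foxo1, Foxo3 and Gadd45a.

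Foxo1 (ENSMUSG00000044167) and Foxo3 (ENSMUSG00000048756) encode the factors themselves, whose activity is set largely by phosphorylation and is not measured by RNA. Their levels varied widely between mice of a group. Foxo1 had 26.1, 46.6, 90.7 and 28.9 CPM in WT mice of the Dnm2 cohort on placebo, 67.7, 39.2, 27.3 and 64.8 CPM in Dnm2 S619L/+ mice, and 65.9, 81.2, 81.1 and 97.1 CPM in WT mice on tamoxifen. WT mouse 3 on placebo was as high as the tamoxifen-fed WT mice, and the log2 fold change of 0.77 under tamoxifen was not called (SE 0.44, edgeR adjusted p = 0.21). In Dnm2 S619L/+ mice on tamoxifen, Foxo1 had 39.4, 61.0, 31.5 and 122.7 CPM, with the highest value in mouse 4, the mouse with the highest Trim63. Foxo1 in the Bin1 cohort was at 33.3, 31.2, 22.7 and 29.6 CPM in WT mice, at 19.1, 57.6, 19.0 and 61.0 CPM in Bin1 mck-/- mice on placebo and at 57.5, 38.5, 61.6 and 94.7 CPM in those on tamoxifen. Bin1 mck-/- mice on placebo thus fell below and above all WT mice, and those on tamoxifen all lay above them. The last difference was large but uncertain (log2 fold change 1.11 with an SE of 0.43, edgeR adjusted p = 0.27).

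Foxo3 spread less than Foxo1 between WT mice. It had 37.3, 35.0, 48.8 and 36.6 CPM in WT mice of the Dnm2 cohort on placebo and 55.8, 63.9, 67.8 and 60.6 CPM in WT mice on tamoxifen, with no overlap. The log2 fold change was 0.66 (with an SE of 0.27, edgeR adjusted p = 0.081), and it was called without Dnm2 S619L/+ mouse 3 on placebo, a mouse outside this comparison (0.65, adjusted p = 0.016). That mouse had the lowest Foxo3 of all (20.4 CPM, against 37.8 to 63.6 CPM in the other Dnm2 S619L/+ mice on placebo). Dnm2 S619L/+ mice on tamoxifen had 36.4 to 58.4 CPM. Foxo3 in the Bin1 cohort was at 35.1 to 45.0 CPM in WT mice, at 27.1 to 52.2 CPM in Bin1 mck-/- mice on placebo and at 46.1 to 67.7 CPM in those on tamoxifen, which did not overlap with WT mice (log2 fold change 0.49 with an SE of 0.20, edgeR adjusted p = 0.29).

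Gadd45a (ENSMUSG00000036390), whose product binds chromatin and cell cycle proteins and which is known to be induced in denervated or immobilised muscle through ATF4, was the member with the largest change. It had 24.8, 27.4, 28.6 and 20.1 CPM in WT mice of the Dnm2 cohort on placebo, and 105.3, 98.3, 70.4 and 92.2 CPM in Dnm2 S619L/+ mice on placebo. The lowest Dnm2 S619L/+ mouse was above 2 times the highest WT mouse. The log2 fold change was 1.86 (with an SE of 0.23, edgeR adjusted p = 0.00012), and it stayed called under all 22 alternatives (1.76 to 2.16). Tendon markers also separated these groups (256 to 485 against 47.4 to 242 CPM), and their part in the difference was not tested. Dnm2 S619L/+ mice on tamoxifen were close to this level, with 106, 81.5, 88.6 and 94.0 CPM (log2 fold change 0.02 against placebo, SE 0.23, edgeR adjusted p = 0.98; 1.88 against WT mice, SE 0.23, adjusted p = 0.00017). WT mice on tamoxifen had 16.1, 14.8, 24.6 and 36.4 CPM, around the level of WT mice on placebo (log2 fold change −0.14 with an SE of 0.23, adjusted p = 0.69).

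Such a step was not seen in the Bin1 cohort. Gadd45a was at 27.6, 41.1, 30.0 and 34.0 CPM in WT mice, at 32.5, 52.0, 24.4 and 43.5 CPM in Bin1 mck-/- mice on placebo and at 33.2, 34.2, 38.2 and 80.3 CPM in those on tamoxifen. The groups overlapped, with 1 treated mouse, mouse 4, above all others (log2 fold change of Bin1 mck-/- against WT mice 0.20, SE 0.31, edgeR adjusted p = 0.77).

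Whether the models differed was tested as the difference of the within-cohort effects, in 1 fit of all 28 mice over 16036 genes. For the disease effect, 0 of the 8 members were called, against 0.312% of all genes, and 1 had an unadjusted p under 0.05, against 13.5% of all genes. DESeq2 called 1 (1.39% of all genes). The largest difference was that of Gadd45a, whose effect was greater in Dnm2 than in Bin1 mice by 1.65 on the log2 scale (SE 0.39, edgeR adjusted p = 0.071). It was called without WT mouse 4 on tamoxifen (1.65, adjusted p = 0.040), Dnm2 S619L/+ mouse 3 on placebo (1.74, adjusted p = 0.039) or Bin1 mck-/- mouse 4 on tamoxifen (1.63, adjusted p = 0.025), and by DESeq2 (1.66, adjusted p = 0.0047). For the effect of tamoxifen in disease mice, 0 members were called, against 1.71% of all genes, with differences of −0.35 to 0.31 and 0 members at an unadjusted p under 0.05 (24.0% of all genes) or called by DESeq2 (8.28%). That of Trim63 was −0.35 (SE 0.51, adjusted p = 0.71), and −1.23 without treated Dnm2 S619L/+ mouse 4 (adjusted p = 0.018). Within the Dnm2 cohort, the effect of tamoxifen in Dnm2 S619L/+ mice did not differ by a called amount from that in WT mice for any member (0 of 8, against 0.259% of all genes, with 0 at an unadjusted p under 0.05, against 13.5%, and 0 called by DESeq2, against 2.12%), and the largest differences were those of Foxo3 (−0.57, SE 0.38, adjusted p = 0.55) and Trim63 (−0.51, SE 0.59, adjusted p = 0.77). With SEs of 0.18 to 0.62 for this contrast, differences of the size of most effects above were not detectable.

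Within groups, some members rose and fell together from mouse to mouse. Log2 CPM minus the group mean was compared over the 28 mice for the 28 pairs of members, as a description with no test. The mice of a cohort share a library protocol. Foxo1 and Foxo3 were the closest pair (Pearson's r = 0.80, Spearman's rho = 0.86), with 0.75 in the Dnm2 cohort and 0.90 in the Bin1 cohort. Trim63 followed Foxo1 (r = 0.77, rho = 0.77; 0.82 and 0.72 in the cohorts) more closely than Foxo3 (r = 0.57, rho = 0.70), Fbxo32 (0.51, rho = 0.43) or Gadd45a (0.48, rho = 0.64). Without the 2 mice farthest from the median of Trim63, its r was 0.73 with Foxo1, 0.71 with Gadd45a and 0.63 with Foxo3. With Fbxo32 it was then 0.43, and with Fbxo40 it fell from 0.49 to 0.12. Trim63 was closer to Gadd45a (0.85) than to Foxo1 (0.72) in the Bin1 cohort, but not in the Dnm2 cohort (0.36 and 0.82). In all, 7 of 28 pairs had an r above 0.5 and 3 had one below 0, each of these with Fbxo21 (lowest −0.38, with Fbxo30). For some pairs with Fbxo21 the sign differed between the Dnm2 and Bin1 cohorts. Its r was 0.62 and −0.61 with Foxo1, 0.40 and −0.65 with Trim63, and 0.51 and −0.40 with Gadd45a. Variation within groups also differed between members. The CV over 4 mice had a median over the 7 groups of 39.6% for Foxo1, 27.4% for Fbxo32, 22.4% for Trim63 and 20.2% for Foxo3, against 17.8% for Gadd45a, 16.03% for Fbxo30, 13.8% for Fbxo21 and 9.31% for Fbxo40.

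**Figure D4:**
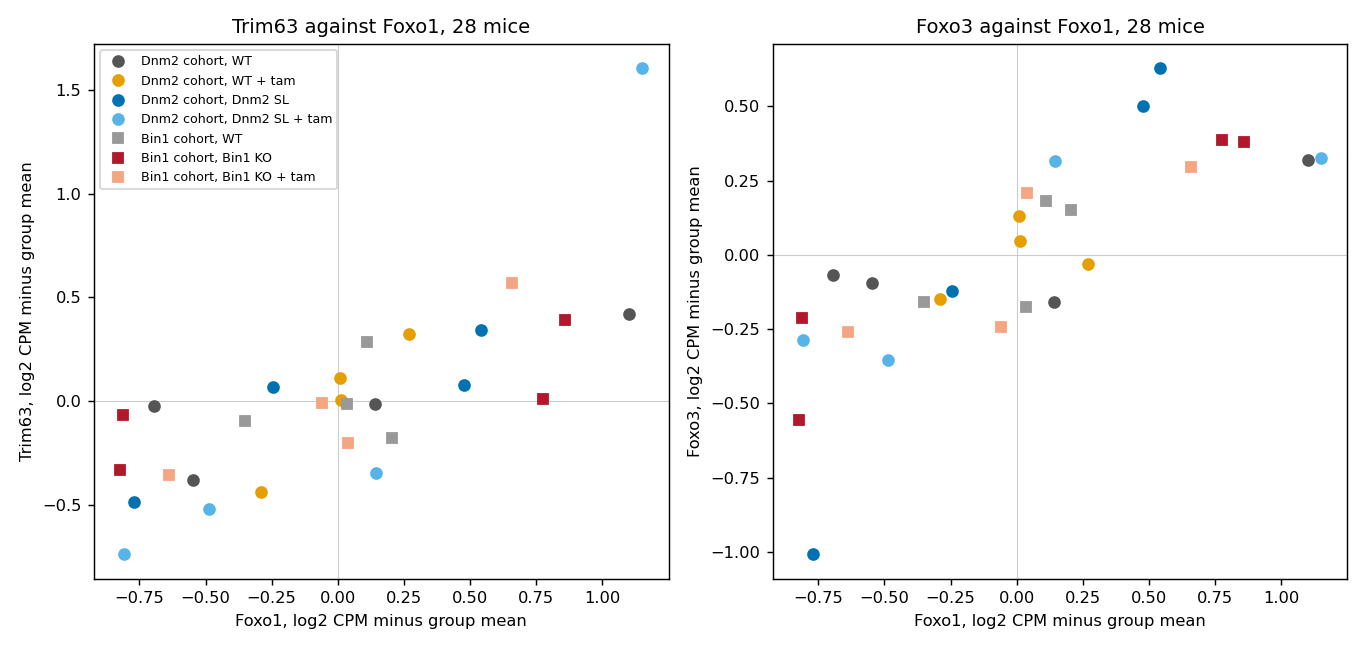
Log2 CPM minus the group mean of Trim63 (left) and Foxo3 (right) against that of Foxo1 in 28 mice, circles for the Dnm2 cohort and squares for the Bin1 cohort. Points run from lower left to upper right in each panel (Pearson's r = 0.77 and 0.80), and Dnm2 S619L/+ mouse 4 on tamoxifen lies at the upper right of the left panel.

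The genes most like each member were sought among 14572 genes tested in both cohorts, by Pearson's r over the 28 mice after taking out the mean of each cohort, so that group differences count as well. For Trim63 they were Tcp11l2 (r = 0.82) and the metallothionein genes Mt1 (0.82) and Mt2 (0.78), which are induced by metals and glucocorticoids. Mt1 had 23.0 to 47.5 CPM in Dnm2 S619L/+ mice 1 to 3 on tamoxifen and 154 CPM in mouse 4. Tcp11l2 had 45.3 to 52.0 CPM and 102 CPM in the same mice. The genes were picked by likeness over these same mice. Values that go with those of a member, here and below, thus follow from the choice and are no separate result. For Foxo1 they were the lipid droplet gene Plin4 (0.88), Odf3l2 (0.87) and Lrrc58 (0.86), and for Foxo3 Plin4 (0.86), Foxo1 (0.86) and Fkbp5 (0.83), the gene of a glucocorticoid-induced co-chaperone. Fkbp5 was at 169.8 CPM in WT mouse 3 on placebo, which was also high in Foxo1, and at 35.2 to 64.6 CPM in the other WT mice of that group. For Fbxo40 they were Homer1, Neb and C2cd2 (0.88 each), with Neb, the gene of the thin filament protein nebulin, a member of the myofiber list. For Gadd45a they were Gm34006 (0.90), the phosphatase gene Dupd1 (0.89) and Nudt16l1 (0.88). Dupd1 had 11.7 to 29.3 CPM in WT and 75.7 to 145.9 CPM in Dnm2 S619L/+ mice on placebo. The lowest likeness was found for Fbxo32 (Cdkn1b 0.75, Sec24a 0.74 and Ino80 0.74), Fbxo30 (Nbeal1 0.74, Syap1 0.73 and Ranbp9 0.71) and Fbxo21 (C730034F03Rik 0.72, Brat1 0.64 and 1700088E04Rik 0.64).

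The neighbours of the members in the pathway are given by lists, with the number of genes called and, for each comparison, the 2 called genes with the smallest p by their log2 fold change. The median log2 fold change of all genes lay between −0.04 and 0.03 in the 7 comparisons. Counts of a list are to be read against the share of all genes called higher and lower, which was 12.1% and 9.81% in Dnm2 S619L/+ against WT mice, 15.8% and 11.9% under tamoxifen in WT mice, 5.22% and 3.04% under tamoxifen in Dnm2 S619L/+ mice, and 15.8% and 13.1% in treated Dnm2 S619L/+ against WT mice. In the Bin1 cohort it was 1.99% and 0.627% in Bin1 mck-/- against WT mice, 1.52% and 1.61% under tamoxifen, and 0.465% and 0.384% in treated mice against WT mice. Among 13 other ligases of muscle, Trim72, which takes part in membrane repair, was higher in Dnm2 S619L/+ mice (0.53) and in Bin1 mck-/- mice (0.70), and lower under tamoxifen in the latter (−0.59). Trim55 (MuRF2), a close relative of Trim63, was lower in Dnm2 S619L/+ mice (−0.34), and with Trim54 (MuRF3) lower under tamoxifen in WT mice (−0.42 and −0.54) and in Dnm2 S619L/+ mice on tamoxifen against WT mice (−0.49 and −0.69). When libraries were scaled by myofiber genes, Trim55 turned to 0.02 and 0.01 in these comparisons and Trim54 went to −0.09 and −0.19, neither called, where the medians of all genes moved to 0.40 and 0.51. In those comparisons 2 of 13 and 4 of 13 fell and 0 and 1 rose, while 1 rose and 1 fell in Dnm2 S619L/+ mice on placebo (list medians −0.17, −0.11 and −0.08). The 2 of 13 and 1 of 13 that fell are near the shares of all genes, 11.9% and 9.81%. In Dnm2 S619L/+ mice on placebo Trim55 was not called with myofiber scaling (−0.07, adjusted p = 0.75). Among 7 genes of the SCF core, Ube2m and Nedd8, which activate cullins, were higher in Dnm2 S619L/+ mice (0.42 and 0.40; 2 rose and 1 fell, median 0.13). Rnf7, a RING partner of cullins, was lower under tamoxifen in WT mice (−0.45), in Dnm2 S619L/+ mice (−0.41) and in treated Dnm2 S619L/+ mice against WT mice (−0.27), but with scaling by myofiber genes it was at −0.0032, −0.18 and 0.24 and was not called (adjusted p = 0.99, 0.51 and 0.17). Cand1 was higher under tamoxifen in WT mice (0.36). In Bin1 mice 0 of the 7 were called in any comparison.

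The 15 genes that act on FoxO factors or belong to their family, with insulin and IGF1 receptors and their substrates, were called only downward, except with scaling by myofiber genes, where 5 of them were called upward and 0 downward in treated Dnm2 S619L/+ mice against WT mice (list median 0.29, all genes 0.51). In Dnm2 S619L/+ mice 4 fell, Foxo4 (−0.62) among them, in WT mice on tamoxifen 3 fell (Foxo6 −1.23 and Insr −0.38), and in treated Dnm2 S619L/+ mice against WT mice 4 fell (Foxo4 −0.64 and Insr −0.44; list medians −0.21, −0.30 and −0.25). With that scaling Insr was at 0.06 and 0.04 and Foxo4 at −0.14 in treated Dnm2 S619L/+ mice, none of them called. Foxo4 in Dnm2 S619L/+ mice on placebo (−0.36, edgeR adjusted p = 0.044) and Foxo6 in WT mice on tamoxifen (−0.80, adjusted p = 0.039) stayed called lower with it. In tamoxifen against placebo within Dnm2 S619L/+ mice and in the Bin1 cohort 0 of 15 were called. The 19 genes known as FoxO targets, many of them in autophagy, were called both ways, in the Dnm2 cohort near or below the shares of all genes. In Dnm2 S619L/+ mice 2 rose and 1 fell (Map1lc3a 0.72 and the antioxidant enzyme gene Sod2 −0.63, median 0.12), and in WT mice on tamoxifen 2 rose and 2 fell (Bnip3 −0.74 and Sod2 −0.60, median −0.08). Bcl2l11, which encodes the death factor BIM, was the 1 called gene under tamoxifen in Dnm2 S619L/+ mice (0.60) and led, with Sod2, in treated mice against WT mice (0.997 and −0.65; 2 rose and 2 fell). With scaling by myofiber genes Sod2 was not called in Dnm2 S619L/+ mice on placebo (−0.36, adjusted p = 0.090), in WT mice on tamoxifen (−0.16, 0.43) or in treated Dnm2 S619L/+ mice (−0.14, 0.44), nor was Bnip3 (−0.32, 0.12). Gabarapl1 in the Bin1 cohort was higher in Bin1 mck-/- mice (0.69), Eif4ebp1, a brake on translation, was higher under tamoxifen (0.92), and Eif4ebp1 and Map1lc3a were higher in treated mice against WT mice (1.08 and 0.74). With scaling by myofiber genes Eif4ebp1 under tamoxifen was at 0.47 (adjusted p = 0.072) and Map1lc3a in treated mice at 0.68 (0.16), neither called.

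Among 13 genes of the glucocorticoid and fasting response, Mt2 and Mt1 led in Dnm2 S619L/+ mice (4.42 and 2.67; 4 rose and 1 fell, median 0.29). Angptl4, an inhibitor of lipoprotein lipase, and Mt2 rose under tamoxifen in WT mice (3.04 and 2.24; 2 rose) and in treated Dnm2 S619L/+ mice against WT mice (2.41 and 2.69; 4 rose), whereas 0 were called under tamoxifen within Dnm2 S619L/+ mice. Mt2 in the Bin1 cohort was higher in Bin1 mck-/- mice (3.62), and Cebpd and Per1 were higher under tamoxifen (1.81 and 0.91), Per1 not with scaling by myofiber genes (0.53, adjusted p = 0.15). Among 10 genes raised by loss of innervation, 7 rose and 0 fell in Dnm2 S619L/+ mice (Runx1 3.36 and Hdac4 0.93, median 1.87), and 3 rose in Bin1 mck-/- mice (Myog 2.26 and Ncam1 1.97, median 1.59). The lists were chosen with earlier results of these data known, so their counts are a description and not a test. Under tamoxifen in WT mice 2 of these 10 denervation genes rose and 2 fell, near the shares of all genes (15.8% and 11.9%). Runx1 rose there (3.27) and the receptor subunit gene Chrna1 fell (−1.86). Within Dnm2 S619L/+ mice 0 of the 10 were called under tamoxifen. In Bin1 mck-/- mice Chrna1 and Chrnd fell under tamoxifen (−1.19 and −2.67) and 0 rose. In treated Dnm2 S619L/+ mice 5 of the 10 were called above WT mice (Runx1 3.94 and Hdac4 0.83), and in treated Bin1 mck-/- mice 0 did. Runx1 also differed in its response to tamoxifen between Dnm2 S619L/+ and WT mice (−2.70, edgeR adjusted p = 0.025), a call lost with scaling by myofiber genes (−2.87, adjusted p = 0.082). Runx1 is expressed in bone as well, and its rise in WT mice went with the bone markers, whose part in it was not tested. Of 7 tested genes of the ATF4 and p53 stress responses, 2 rose and 0 fell in Dnm2 S619L/+ mice (list median −0.09). These were Eda2r (3.50) and the cell cycle inhibitor gene Cdkn1a (3.09), and the rest, Atf4 among them, were not called. In treated Dnm2 S619L/+ against WT mice 3 rose (median 0.71), with Eda2r at 2.66 and Cdkn1a at 3.32. Nupr1 and Cdkn1a rose under tamoxifen in WT mice (2.04 and 1.52), and Eda2r was higher in Bin1 mck-/- mice (2.82), where Gadd45a was not called.

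**Figure D5:**
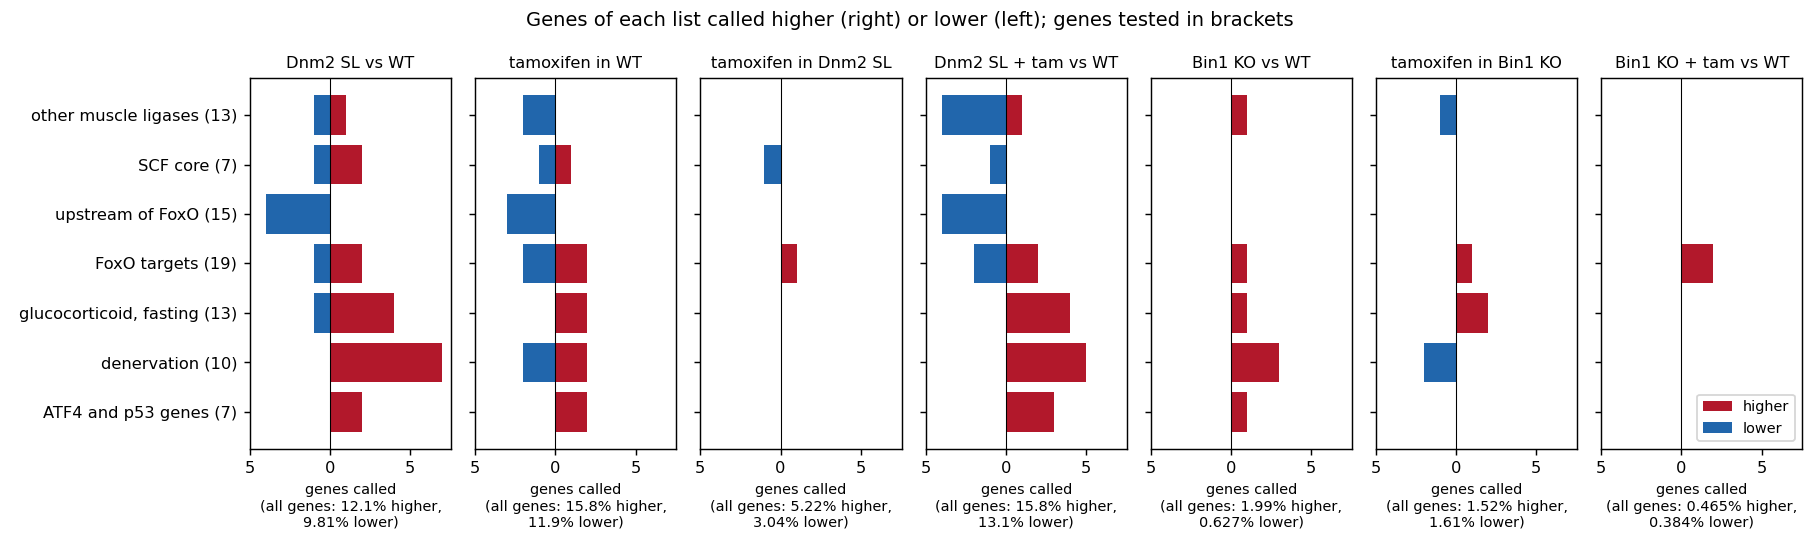
Number of genes of each list called higher (right of 0) or lower (left of 0) in the 7 comparisons, with the number of genes tested in brackets and the share of all genes called under each panel. The denervation list has the longest bar, with 7 of 10 genes higher in Dnm2 S619L/+ than in WT mice (12.1% of all genes), and genes upstream of FoxO are called only to the left, except with scaling by myofiber genes, where 5 are called to the right in treated Dnm2 S619L/+ against WT mice. The lists were chosen with earlier results of these data known.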

How the data were processed

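RNA was isolated from tibialis anterior muscle, and strand-specific libraries of polyadenylated RNA were sequenced. The authors deposited whole-number read counts per Ensembl gene, without normalization, in 1 table per cohort. The submitters' processing notes name bcl2fastq 2.20.0.422, cutadapt 1.10, Bowtie 1.2.2, STAR 2.5.3, HTSeq 0.6.1p1 and the build mm39. For the Bin1 cohort, 4 lines that name no gene, with 22.0% to 30.8% of the counts per mouse, were left out. Groups came from the labels. The members and the gene lists were chosen with earlier results of these data known.

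Gene names and exon lengths came from GENCODE M21, and 52083 identifiers were named. Counts were tested with edgeR 4.0.16 in R 4.3.3 (TMM, filterByExpr, robust quasi-likelihood test, prior count 2, Benjamini-Hochberg adjusted p under 0.05), with all mice of a cohort in 1 fit, and all 28 mice in 1 fit for differences between cohorts. SE is the size of the log2 fold change divided by the root of F. The tests were checked on simulated counts. By rule, the text names all 8 members, up to 2 called genes per list and comparison (lowest p first) and, per member, the 3 genes closest to it. The value of 1 gene that the rule would name is not reported here. Ddit3, which maps to 2 identifiers, was left out of its list. Alternatives were DESeq2 1.42.0, RLE normalization, no filter on low counts, scaling by 10 myofiber genes, fits of just the compared groups, a block for replicate number, and leaving out each mouse. Members had 182 to 43127 counts per mouse. For Fbxo30 and Fbxo21, with lowest group CVs of 8.65% and 8.0%, counting error was not small beside the spread between mice. For the other members, which had more counts, it was smaller beside this spread. No pair of mice in a group agreed within counting error (lowest chi-square per gene 15.6).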

Additional observations from a re-analysis of the deposited data

Results flagged for a closer look

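In 5 of the 56 combinations of a member and a group, 1 of the 4 mice stood apart from the other 3 by more than Dixon's criterion allows at 95%, where chance gives about 1 in 20. Trim63 was at 1155 CPM in Dnm2 S619L/+ mouse 4 on tamoxifen, against 228 to 299 CPM in the other 3 mice. Gadd45a was at 80.3 CPM in Bin1 mck-/- mouse 4 on tamoxifen, against 33.2 to 38.2 CPM, and this mouse also had the highest Trim63 and Foxo1 of its group. Foxo3 was at 48.8 CPM in WT mouse 3 of the Dnm2 cohort on placebo, against 35.0 to 37.3 CPM, and this mouse also had the highest Foxo1. Fbxo32 was at 309 CPM in Bin1 mck-/- mouse 2 on placebo, against 242 to 250.2 CPM, and Fbxo30 was at 12.9 CPM in WT mouse 6 of the Bin1 cohort, against 8.76 to 9.46 CPM. The causes were not tested.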

How the results depend on the processing

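The number of members called moved in most comparisons under some alternative. With DESeq2 it was 2 for Dnm2 S619L/+ against WT mice, 1 for Bin1 mck-/- against WT mice, 2 for tamoxifen in Bin1 mck-/- mice, 2 for treated Bin1 mck-/- against WT mice and 1 for the difference of disease effects. With only the groups compared it was 3 for Dnm2 S619L/+ against WT mice, 2 for tamoxifen in WT mice, 1 for Bin1 mck-/- against WT mice and 0 for tamoxifen in Bin1 mck-/- mice. With scaling by myofiber genes it was 2, 4, 1 and 0 in the same order, 5 for treated Dnm2 S619L/+ against WT mice and 2 for the difference of tamoxifen effects. This scaling moved the median of all genes to between −0.44 (tamoxifen in Bin1 mck-/- mice) and 0.51 (treated Dnm2 S619L/+ against WT mice) in the comparisons of groups, and to 0.65 for the difference of tamoxifen effects. Fbxo40 then changed sign under tamoxifen in WT mice (0.17) and in Dnm2 S619L/+ mice (0.0084) and in Bin1 mck-/- against WT mice (0.0753), and so did Trim63 in the difference of tamoxifen effects (0.19).

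Over all genes, calls moved more than 1.5 times under several alternatives. For tamoxifen in Dnm2 S619L/+ mice, 1276 genes were called, against 30 with only the groups compared, 814 without a filter, 849 with the block and 810 with myofiber scaling. For Bin1 mck-/- against WT mice, 388 were called, against 1191 with DESeq2, 1458 with only the groups compared and 843 with myofiber scaling. For tamoxifen in Bin1 mck-/- mice, 464 were called, against 1223 with DESeq2, 122 with only the groups compared, 152 with the block and 1931 with myofiber scaling. For treated Bin1 mck-/- against WT mice, 126 were called, against 544 with DESeq2, 210 without a filter and 55 with myofiber scaling. For treated Dnm2 S619L/+ against WT mice, 4461 were called, against 7051 with myofiber scaling. The split of higher and lower genes moved with that scaling from 1868 and 1515 to 2780 and 238 for Dnm2 S619L/+ against WT mice, from 2440 and 1833 to 4511 and 83 for tamoxifen in WT mice, from 806 and 470 to 742 and 68 for tamoxifen in Dnm2 S619L/+ mice, from 2435 and 2026 to 6878 and 173 for treated Dnm2 S619L/+ against WT mice, from 295 and 93 to 817 and 26 for Bin1 mck-/- against WT mice, and from 225 and 239 to 71 and 1860 for tamoxifen in Bin1 mck-/- mice. For the interaction 40 were called, against 327 with DESeq2, 20 with RLE, 10 with the block and 2 with myofiber scaling. For the differences between models 50 (disease) and 274 (tamoxifen) were called, against 223 and 1328 with DESeq2 and 4 and 3956 with myofiber scaling, and the latter against 63 without a filter. Without 1 mouse, the number of genes called ranged from 2034 to 3952 for Dnm2 S619L/+ against WT mice (3383 with all mice), from 2769 to 4825 for tamoxifen in WT mice (4273), from 368 to 2562 for tamoxifen in Dnm2 S619L/+ mice, from 2954 to 5496 for treated Dnm2 S619L/+ against WT mice, from 18 to 759 for Bin1 mck-/- against WT mice, from 160 to 1253 for tamoxifen in Bin1 mck-/- mice, from 42 to 266 for treated Bin1 mck-/- against WT mice, from 1 to 293 for the interaction, and from 13 to 154 (disease) and 6 to 2195 (tamoxifen) for the differences between models. Without the filter on low counts, 10 calls of named list genes were lost with little change in size (adjusted p up to 0.13).

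Correlations of the deviations of mice with the same replicate number ran from −0.32 to 0.33, with 10 of 28 above 0.1. Mice with different numbers were not compared, so whether the numbers pair the mice was not tested. With the replicate number as a block, the count was 0 for tamoxifen in Bin1 mck-/- mice (the 2 groups alone) and Trim63 turned to −0.0108 under tamoxifen in Dnm2 S619L/+ mice. The block left the other counts as they were.

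Without each mouse in turn, the count ranged from 1 to 3 for Dnm2 S619L/+ against WT mice, from 0 to 1 for tamoxifen in WT mice, from 0 to 2 for tamoxifen in Dnm2 S619L/+ mice, from 2 to 4 for treated Dnm2 S619L/+ against WT mice, from 0 to 1 for Bin1 mck-/- against WT mice, from 0 to 2 for tamoxifen in Bin1 mck-/- mice, and from 0 to 1 for each difference between the models. Trim63 under tamoxifen in Dnm2 S619L/+ mice ranged from −0.68 to 0.44. Of 640 recomputed log2 fold changes of members, 572 kept their direction and their side of the threshold, 23 lost a call, 39 gained one and 6 changed sign. Unscaled library sizes moved 6 of 56 mean levels by more than the SD between mice. With 4 mice a group and SEs of up to 0.44 within a cohort, changes of Foxo1 of that size were not detectable.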
